A study of Mus musculus with 22 samples.

Results

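The samples described here follow the anterior neural tube of arsenate-exposed mouse embryos over 9 hours of development, and the comparison sets gestational day 9, hour 0 (GD9:00) against gestational day 8, hour 15 (GD8:15). They were chosen by title, as every array of treated neural tube at these stages, and number 7 of the 22 arrays of the series: 3 at GD9:00 and 4 at GD8:15. Their dams lacked Folr2, a gene for a folate-binding membrane protein, and were given sodium arsenate into the peritoneum at 9.6 mg arsenic per kg of body weight, 2 times, at hour 12 of days 7 and 8. Embryos were collected 12 h after the second injection for GD9:00 and 3 h after it for GD8:15. The same stage change without arsenate comes from 8 control arrays, 4 at GD9:00 and 4 at GD8:15, whose Folr2-/- dams had water injected on the same days. The labels call the embryos of every sample nullizygous for this gene, so all groups share its loss. Each sample was RNA of the dissected anterior part of a neural tube, amplified, labelled with biotin and hybridised to a 1-colour CodeLink 10K oligonucleotide array. The labels do not say whether embryos of a group came from separate dams. The p-values below therefore measure the spread between arrays, which may not be the spread between dams.

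In the mouse these hours fall within neurulation, when the neural folds of the head rise, bend and fuse into a tube while brain regions are laid down and the cells divide fast. Retinoic acid made in neighbouring mesoderm, and Wnt, Fgf, Bmp and Shh ligands from local sources, set the regional identity of the neural plate. Arsenate competes with phosphate in metabolism and is reduced in the body to arsenite, which binds protein thiols, and in rodents it is known to disturb closure of the neural tube.

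Values are log2 intensities after quantile normalisation of the 22 arrays, and a difference is GD9:00 minus GD8:15 with its standard error (SE) unless another is named. Each SE and limma p rests on a spread per probe pooled over all 22 arrays, unless another fit is named. It is therefore not the scatter of the arsenic values printed beside it. The median correlation over all probes between pairs of arsenic arrays was 0.916 within GD9:00 (3 pairs), 0.894 within GD8:15 (6 pairs) and 0.898 between the stages (12 pairs), so stage did not separate these arrays at the level of all probes. Replicates are numbered here in accession order, which only names the arrays. Replicate 3 stood furthest from its own group at both stages, with a mean r of 0.903 at GD9:00 and 0.870 at GD8:15. The number code in the sample titles began with the same 3 digits on all 3 GD9:00 arsenic arrays and with another 3 on all 4 at GD8:15. The labels do not explain this code, and read as a slide series it cannot be told apart from stage within the 7 arrays. One of the GD8:15 control arrays, replicate 3, carried the code of the GD9:00 arrays, and its values are given below where they bear on a gene. Quantile normalisation brought the arrays to one distribution, and the median difference over the tested probes was -0.02.

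Of 7830 probes tested, 330 passed the limma test at a Benjamini-Hochberg adjusted p below 0.05, which is 4.21% of them. Of these, 188 were higher at GD9:00 (2.4%) and 142 lower (1.81%). The stages did not overlap for 174 of the 188 and 128 of the 142, where 7.32% of all probes had every GD9:00 array above every GD8:15 array and 6.37% had every one below. In size, 89 of the higher and 57 of the lower ones differed by more than 2-fold. The 5 named genes with the largest rises were the pyruvate kinase gene Pkm, the ubiquitin ligase subunit gene Skp2, the elongation factor gene Eef2, the ATP synthase subunit gene Atp5b and the translocon gene Sec61a1. Among the largest falls stood Aldh1a2, whose enzyme makes retinoic acid, and Slc25a3, the phosphate carrier of mitochondria. With the scaling of the deposited values in place of quantile normalisation, 19 probes were higher and 132 lower, so the share of higher calls was 12.6% in place of 57.0%. Under it the median difference of all probes was -0.26, a shift of -0.24, and all 330 probes kept their sign under it. In a fit of the 7 arsenic arrays alone 40 probes were higher and 7 lower, and 21 of the 69 named genes that passed did so there. Those were Atp5b, Aldh1a2, Ccdc88a, Ccnd3, Coro1b, Ddit4, Ddt, Eef2, Eif4a1, Eif4ebp2, Exosc5, Hdgf, Lamc1, Maz, Pkm, Rps6kb2, Sec61a1, Skp2, Sqstm1, Tbrg4 and Wars.

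Promoter sequence of 4 genes is shown because these 3 rises and this fall were among the largest changes (genes picked after their values were seen), and because each window holds the CCAAT box, a motif bound by the factor NF-Y in many growth genes. The letters searched were CCAAT on both strands, so ATTGG is a match as well, and the matches are in capitals. For Pkm and Skp2 2 transcription starts each are listed, and only the first is shown, while Atp5b and Aldh1a2 have 1 each. The windows run from 250 bases before to 50 bases after the first transcription start that RefSeq lists (GRCm38.p6). They are Pkm at chr9:59656326-59656625 (plus strand), Skp2 at chr15:9155376-9155675 (minus strand), Atp5b at chr10:128083057-128083356 (plus strand) and Aldh1a2 at chr9:71215539-71215838 (plus strand).
Pkm: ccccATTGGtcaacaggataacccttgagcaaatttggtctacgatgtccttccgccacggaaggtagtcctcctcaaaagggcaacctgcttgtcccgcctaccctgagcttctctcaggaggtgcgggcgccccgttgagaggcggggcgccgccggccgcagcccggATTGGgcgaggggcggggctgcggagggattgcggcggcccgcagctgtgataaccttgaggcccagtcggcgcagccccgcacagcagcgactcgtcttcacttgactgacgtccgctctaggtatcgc
Skp2: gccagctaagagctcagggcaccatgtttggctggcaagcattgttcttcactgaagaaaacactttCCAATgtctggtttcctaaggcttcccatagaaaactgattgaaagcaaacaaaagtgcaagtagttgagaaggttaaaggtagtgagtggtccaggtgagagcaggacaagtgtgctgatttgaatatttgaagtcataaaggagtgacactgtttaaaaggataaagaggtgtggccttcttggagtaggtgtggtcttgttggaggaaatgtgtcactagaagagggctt
Atp5b: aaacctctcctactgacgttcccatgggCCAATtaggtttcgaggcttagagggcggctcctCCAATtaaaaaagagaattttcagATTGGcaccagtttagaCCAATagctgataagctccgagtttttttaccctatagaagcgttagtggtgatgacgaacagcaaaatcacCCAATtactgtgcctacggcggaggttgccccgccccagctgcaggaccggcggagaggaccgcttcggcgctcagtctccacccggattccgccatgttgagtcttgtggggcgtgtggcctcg
Aldh1a2: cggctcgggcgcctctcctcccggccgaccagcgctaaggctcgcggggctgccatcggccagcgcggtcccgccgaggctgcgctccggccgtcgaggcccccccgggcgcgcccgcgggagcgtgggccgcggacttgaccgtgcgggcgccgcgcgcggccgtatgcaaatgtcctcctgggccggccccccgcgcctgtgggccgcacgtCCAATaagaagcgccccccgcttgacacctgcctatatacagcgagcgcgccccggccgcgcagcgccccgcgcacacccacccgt
The Atp5b window holds 5 CCAAT boxes, the Pkm window 2, and the Skp2 and Aldh1a2 windows 1 each. A CCAAT box occurs in 37.4% of all 32851 promoter windows in the table and in 39.2% of the first windows of the tested genes. It was present in 44.0% of the 134 first windows found for genes that rose and in 36.5% of the 104 found for genes that fell. The GC box GGGCGG, searched on both strands as well, was in 73.1% of the windows of genes that rose, in 49.0% of those of genes that fell and in 60.7% of those of all tested genes. These are counts of letters and say nothing of binding.

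Pkm encodes a pyruvate kinase, which carries out the last step of glycolysis. It read 12.38, 12.19 and 10.61 in the GD9:00 arsenic embryos, against 7.50, 7.95, 7.71 and 7.56 in the GD8:15 arsenic embryos. The stages lay far apart, and the lowest GD9:00 value was that of replicate 3. Its difference was 4.04 ± 0.45 (SE, limma adjusted p = 3.0e-05), a 16.5-fold change. In controls the Pkm difference was 4.96 ± 0.41, and control GD8:15 replicate 3 read 7.50, beside its GD8:15 fellows.

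Skp2, which encodes the substrate-binding subunit of an SCF ubiquitin ligase that marks cell cycle inhibitors for breakdown, came next among named genes. Skp2 read 10.98, 10.13 and 10.38 at GD9:00 and between 7.44 and 7.55 in all 4 GD8:15 arsenic embryos, a difference of 3.02 ± 0.36 (adjusted p = 7.1e-05). The GD8:15 values were almost flat, at an intensity above that of 46.5% of probes. A probe without a gene symbol, number 7207, had a larger difference than any named gene, 4.88 ± 0.27, from 11.98, 12.84 and 12.03 at GD9:00 and 7.53, 7.32, 7.36 and 7.42 at GD8:15.

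Eef2, which moves the ribosome along the message, read 9.81, 9.90 and 9.64 at GD9:00, against 7.67, 7.57, 7.25 and 7.09 at GD8:15 (2.39 ± 0.29, adjusted p = 9.8e-05). Sec61a1, the pore through which new proteins enter the endoplasmic reticulum, read 9.48, 9.20 and 9.71 at GD9:00, against 7.16, 7.11, 7.16 and 7.16 at GD8:15 (2.31 ± 0.21, adjusted p = 5.3e-06). At GD8:15 Sec61a1 was brighter than 19.1% of probes, near the dim end of the arrays. Neither gene's groups came within 1 log2 unit of each other. Eif4a1, the helicase of translation initiation, was higher by 1.81 ± 0.36, and Eif4ebp2, a repressor of the cap-binding factor, by 1.83 ± 0.24. The 3 GD9:00 values of Eif4ebp2 were 11.99, 11.93 and 11.94, against 10.34, 10.18, 9.63 and 10.35 at GD8:15.

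**Figure D1:**
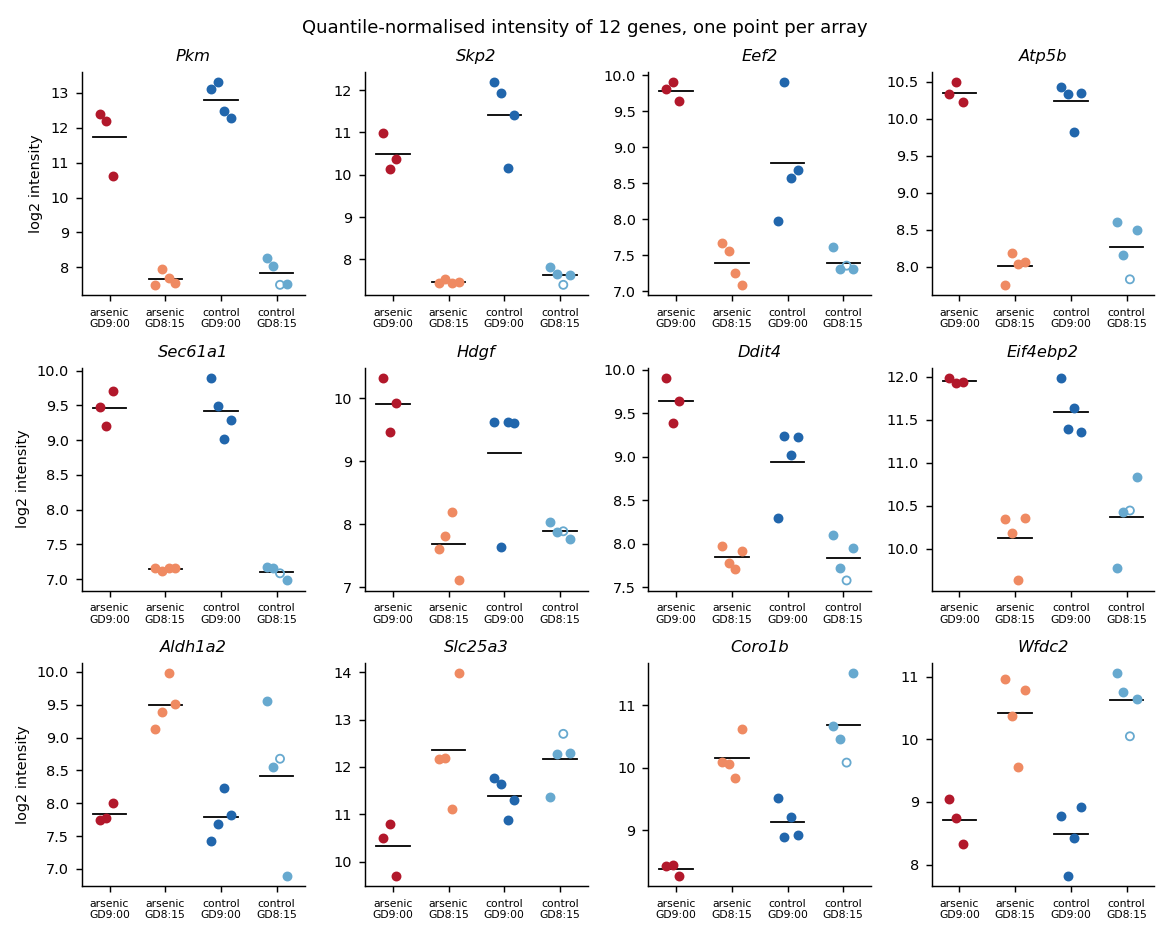
Log2 intensity (vertical axis, separate scale per gene) of 12 genes on every arsenic and control array at GD9:00 and GD8:15, with the group mean as a line. The open circle is control GD8:15 replicate 3. In the arsenic groups Pkm lies between 10.61 and 12.38 at GD9:00 and between 7.50 and 7.95 at GD8:15, and Aldh1a2 between 7.75 and 8.01 at GD9:00 and between 9.13 and 9.98 at GD8:15.

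H2az1, a histone H2A variant gene, read 12.33, 12.86 and 11.31 at GD9:00, against 10.29, 10.60, 9.05 and 9.58 at GD8:15 (2.29 ± 0.52, adjusted p = 0.017). For this gene control GD8:15 replicate 3 read 11.69, above all 4 arsenic GD8:15 arrays. Hdgf, a growth factor gene, rose by 2.23 ± 0.37, the zinc finger factor gene Maz by 2.02 ± 0.22 and the autophagy receptor gene Sqstm1 by 2.14 ± 0.41. The probes of Hdgf, Tbrg4 and Tmem126a lay in a run of low signals on GD8:15 replicate 4, as that of Slc25a3 did on replicate 2 and that of Krt18 on replicate 1. Tbrg4, of mitochondrial RNA metabolism, rose by 2.02 ± 0.21, the actin-binding protein gene Ccdc88a by 1.89 ± 0.30, the complex I assembly gene Tmem126a by 1.84 ± 0.48 and the histone methyltransferase gene Kmt5a by 1.83 ± 0.50. Kmt5a ended at an adjusted p of 0.045 and passed in 1 of the 7 fits that left out an arsenic array.

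The largest named falls were about 2 log2 units. Gpatch2, a nuclear G-patch protein gene, read 7.88, 8.05 and 7.92 at GD9:00, against 9.95, 9.82, 11.47 and 8.86 at GD8:15 (-2.08 ± 0.41, adjusted p = 0.0084). Slc25a3 read 10.49, 10.79 and 9.70 at GD9:00, against 12.16, 12.19, 11.12 and 13.97 at GD8:15 (-2.04 ± 0.50, adjusted p = 0.025). The Slc25a3 groups did not overlap, but the GD8:15 arrays spread over nearly 3 log2 units. Coro1b, an actin regulator gene, read 8.43, 8.44 and 8.27 at GD9:00, against 10.09, 10.06, 9.84 and 10.62 at GD8:15 (-1.77 ± 0.25, adjusted p = 0.00055).

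Exosc5, a subunit of the RNA exosome, fell by 1.56 ± 0.25, Rbm19, of ribosome assembly, by 1.67 ± 0.39 and Scaf11, a splicing-related gene, by 1.49 ± 0.39. Rps6kb2, an S6 kinase gene, read 7.88, 7.76 and 8.34 at GD9:00, against 9.91, 9.24, 9.93 and 9.34 at GD8:15 (-1.61 ± 0.24, adjusted p = 0.001). Gpam, which starts glycerolipid synthesis, fell by 1.76 ± 0.33, Wfdc2, a secreted protease inhibitor gene, by 1.71 ± 0.32 and Hspbp1, an Hsp70 nucleotide exchange factor gene, by 1.69 ± 0.42. Necab2, Ddt, Cd3d and Musk, which encode a calcium-binding protein, a tautomerase, a T cell receptor subunit and a muscle receptor kinase, had differences of -1.70 to -1.45. Each of these values stands for its probe alone.

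Each gene above is read by 1 probe in nearly all cases. Among 94 genes with more than 1 tested probe, the first pair of probes had differences of the same sign in 52. This is little more than signs drawn at random would give, so 1 probe told little of the sign of the other. Of 3 second probes of genes that passed, those of Pole3, Sppl3 and Tex261, 2 had the sign of the first and none passed. The 54 ribosomal protein probes, which should be bright in growing cells, had a median intensity above 98.9% of all probes, so the symbols of that class stood on bright spots. For other genes the match of a probe to its gene was not tested.

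The tissue label was set against marker genes. Of the probes on the array, 8 of 26 for neural progenitors stood above the 75th percentile of intensity at each stage, and 11 of 27 at GD9:00 and 10 of 27 at GD8:15 for brain patterning. For neurogenesis the counts were 4 of 28 at GD9:00 and 7 of 28 at GD8:15, and for neural crest 6 of 18 at each stage. Other cell types gave 7 of 27 for head mesenchyme and 6 of 25 for blood at each stage, so these counts did not set neural lists apart. At both stages the probes of the forebrain gene Six3, the dorsal genes Msx1 and Pax3 and the midbrain gene En1 were brighter than 90% of all probes, and the progenitor gene Nes than 85%. Probes of other tissues were bright as well, among them the globin gene Hba-a1, the atrial myosin gene Myl7, the mesenchyme gene Tcf21 and the ectodermal genes Krt7 and Dlx3. A bright probe shows signal and not how many cells of a type were present. The part of blood, heart, head mesenchyme and surface ectoderm in these dissections was not tested, and in bulk RNA fewer cells of a type and less RNA per cell cannot be told apart.

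Counts over the lists below are read against the 4.21% of all probes that passed. In the lists of neural progenitors, patterning and neurogenesis 4.55%, 4.35% and 5.26% passed, near that share. Of 22 neural progenitor genes tested, 1 passed, the SoxC factor gene Sox4, which read 8.26, 7.83 and 8.03 at GD9:00, against 7.26, 7.19, 7.23 and 7.42 at GD8:15 (0.77 ± 0.12, adjusted p = 0.0015). The median difference of that list was 0.12, and its mean level per array, relative to each gene's mean over the series, ran from -0.02 to 0.08 at GD9:00 and from -0.29 to -0.21 at GD8:15. Sox11, the relative of Sox4, had 1.20 ± 0.42 on its brighter probe and -0.27 ± 0.20 on another, and neither passed. Zic2, a dorsal factor needed for closure of the tube in mice, had 1.38 ± 0.39 and missed the threshold (adjusted p = 0.057), though its GD9:00 values of 9.55, 8.98 and 10.23 all lay above the GD8:15 values of 8.16, 7.94, 8.94 and 7.80.

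Of 23 patterning genes of forebrain, midbrain and hindbrain, 1 passed: Otx2, which fore- and midbrain need to form. Otx2 read 8.79, 8.69 and 8.42 at GD9:00, against 7.78, 7.59, 7.63 and 8.46 at GD8:15 (0.77 ± 0.17, adjusted p = 0.016), with the GD8:15 replicate 4 reaching into the GD9:00 range. The median of the list was -0.01. Of 19 genes of neurogenesis, 1 passed, the motor neuron and head sensory gene Isl1, whose 8.16, 7.99 and 7.57 at GD9:00 stood above a narrow band of 7.36 to 7.42 at GD8:15 (0.51 ± 0.14, adjusted p = 0.0498). Isl1 lost its call in 6 of the 7 fits without one arsenic array, and control GD8:15 replicate 3 read 7.85, within the GD9:00 range. None of 18 Hox and Cdx genes, 15 neural crest genes, 15 epiblast genes or 16 genes of primitive streak and paraxial mesoderm passed.

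Genes known for mutant mice with open neural tubes were counted as a list of neural tube closure. Of 33 tested, 3 rose and 1 fell, 12.1% of the list beside 4.21% of all probes, and their median difference was 0.18. Jmjd6, a hydroxylase gene, read 10.36, 9.64 and 10.24 at GD9:00, against 9.31, 8.53, 8.74 and 8.88 at GD8:15 (1.22 ± 0.26). Dvl1, a carrier of Wnt and planar polarity signals, rose by 0.46 ± 0.12 and the adaptor gene Crkl by 0.57 ± 0.13. At GD8:15 the mean of Crkl was brighter than 4.02% of probes, near the lowest values of the arrays. Marcksl1, an actin-linked substrate of protein kinase C, read 7.27, 7.23 and 7.21 at GD9:00, against 7.67, 7.84, 7.96 and 7.78 at GD8:15 (-0.58 ± 0.09, adjusted p = 0.0015). The Marcksl1 values at GD9:00 were near the dim end of the arrays, and the groups did not overlap. When 1 arsenic array at a time was left out, Marcksl1 passed in all 7 fits, Jmjd6 and Crkl in 6 each and Dvl1 in 2.

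Aldh1a2, the main source of retinoic acid in the early embryo, was the sole gene past the threshold among 13 retinoic acid genes. It read 7.75, 7.77 and 8.01 at GD9:00, against 9.13, 9.39, 9.98 and 9.50 at GD8:15, a difference of -1.66 ± 0.38 (adjusted p = 0.020), 3.16-fold lower. Every GD9:00 array lay more than 1 log2 unit below every GD8:15 array. In controls Aldh1a2 averaged 7.80 ± 0.33 at GD9:00 and 8.42 ± 1.11 at GD8:15 (SD, n = 4 each), and the control difference of -0.63 ± 0.36 did not pass. The 2 changes were not shown to differ (-1.04 ± 0.52, adjusted p = 0.61), and the control GD8:15 arrays ranged from 6.89 to 9.56. Cyp26a1, the enzyme that breaks retinoic acid down, had -0.52 ± 0.23 and did not pass.

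Of 40 genes of Wnt, Fgf, Bmp and Shh signalling, 1 passed, the ligand gene Fgf15, which rose by 0.62 ± 0.16 (adjusted p = 0.036). Its values were 9.03, 8.66 and 8.41 at GD9:00, against 7.82, 8.33, 8.19 and 7.98 at GD8:15. Gas1, a co-receptor for Shh, had a larger difference of 1.69 ± 0.51 with 10.62, 10.59 and 10.70 at GD9:00, against 9.34, 9.36, 10.06 and 7.05 at GD8:15, and did not pass (adjusted p = 0.070). The GD8:15 replicate 4 set most of that spread.

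The cell cycle list held 46 tested genes, of which 3 rose and 1 fell (8.70%, against 4.21% of all probes). Mcm7, a subunit of the replicative helicase, read 9.23, 9.31 and 8.01 at GD9:00, against 7.66, 7.42, 7.44 and 7.28 at GD8:15 (1.40 ± 0.24, adjusted p = 0.003). The D-type cyclin genes moved the same way, Ccnd3 by 1.10 ± 0.16 and Ccnd2 by 0.97 ± 0.26. Cdc20, an activator of the anaphase-promoting complex, went down: it read 8.37, 8.52 and 7.91 at GD9:00, against 10.12, 9.17, 8.87 and 9.67 at GD8:15 (-1.19 ± 0.22, adjusted p = 0.0048). The members that passed therefore include a G1 cyclin pair and a replication gene on one side and a mitotic gene on the other. With 1 arsenic array left out, Ccnd2 passed in 2 of the 7 fits, whereas Ccnd3, Mcm7 and Cdc20 passed in all 7.

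**Figure D2:**
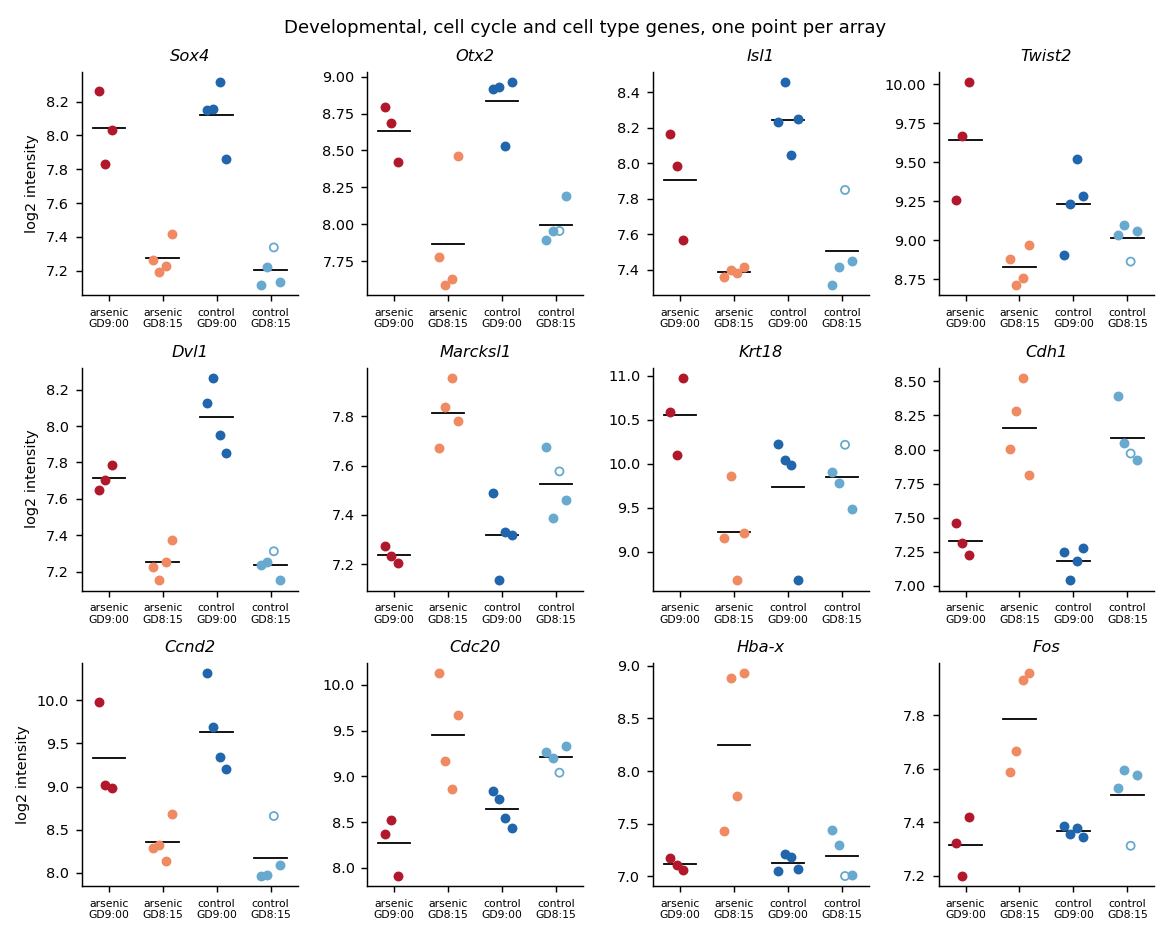
Log2 intensity (vertical axis, separate scale per gene) of 12 developmental, cell cycle and cell type genes on every arsenic and control array at GD9:00 and GD8:15, with group means as lines and control GD8:15 replicate 3 as an open circle. Sox4 lies between 7.83 and 8.26 in arsenic embryos at GD9:00 and between 7.19 and 7.42 at GD8:15, and Hba-x between 7.06 and 7.17 at GD9:00 and between 7.42 and 8.93 at GD8:15.

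Of 20 genes of surface ectoderm and epithelium, 3 rose and 1 fell, 4 of 20 where 4.21% of all probes passed. The list had 12 negative and 8 positive differences and a median of -0.08, where 4128 of all 7830 probes tested had a negative difference. Krt18, a keratin of simple epithelia, read 10.59, 10.11 and 10.98 at GD9:00, against 9.16, 9.87, 8.68 and 9.22 at GD8:15 (1.33 ± 0.33). The claudin genes Cldn6 and Cldn4 rose by 1.23 ± 0.28 and 0.81 ± 0.21. Of the 7 fits that left out an arsenic array, Cldn6 passed in 6, Krt18 in 2 and Cldn4 in 1. Cdh1, the epithelial cadherin that neural cells give up as the tube forms, read 7.46, 7.31 and 7.22 at GD9:00, against 8.01, 8.28, 8.53 and 7.81 at GD8:15 (-0.83 ± 0.14, adjusted p = 0.0025). For Cdh1 all GD9:00 arrays were below all GD8:15 arrays, and the control difference was -0.90 ± 0.13. The list's mean level per array ran from 0.11 to 0.16 at GD9:00 and from 0.06 to 0.15 at GD8:15. The part of surface ectoderm carried along with the dissection was not tested.

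Matrix and adhesion genes gave 3 rises among 29, besides the Cdh1 fall already described (13.8% in all, against 4.21% of all probes). Lamc1, a laminin chain of the basement membrane, read 10.15, 9.96 and 9.81 at GD9:00, against 8.89, 8.87, 8.64 and 8.70 at GD8:15 (1.19 ± 0.19, adjusted p = 0.0014), with tight groups. Tnc, a glycoprotein of migrating crest and mesenchyme, rose by 1.28 ± 0.34, with 10.16 in GD9:00 replicate 3 and 8.76 and 8.75 in the others. Col2a1, a cartilage collagen gene that also marks the notochord sheath, rose by 0.36 ± 0.09. Twist2 was the 1 gene that passed among 19 head mesenchyme genes, at 9.25, 9.66 and 10.01 at GD9:00, against 8.88, 8.71, 8.76 and 8.97 at GD8:15 (0.81 ± 0.17). That is 5.26% of the list, near the 4.21% of all probes. The head mesenchyme list had 9 positive and 10 negative differences and a median of -0.11.

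Markers of blood, vessels and macrophages gave 1 fall each, and the 5.56% of the blood and of the vessel list is near the 4.21% of all probes. Hba-x, the embryonic zeta globin gene of yolk sac red cells, read 7.17, 7.10 and 7.06 at GD9:00, against 7.42, 8.89, 7.76 and 8.93 at GD8:15 (-1.14 ± 0.31, adjusted p = 0.046). All 3 GD9:00 values were near the dim end of the arrays. The alpha globin gene Hba-a1 read 11.39, 10.42 and 11.60 at GD9:00, against 11.58, 14.28, 14.68 and 12.73 at GD8:15, and its difference of -2.18 ± 0.88 did not pass. Of 18 blood genes tested 1 passed, and the list's mean level ran from -0.32 to 0.06 at GD9:00 and from -0.18 to 0.42 at GD8:15, so the stages overlapped. The endothelial receptor gene Tie1 fell by 0.78 ± 0.21 (1 of 18) and the macrophage gene Aif1 by 0.38 ± 0.09 (1 of 10), and neither Aif1 nor Hba-x was brighter than 15% of probes at GD9:00. None of 20 heart and muscle genes passed, with a median of 0.15 in arsenic embryos and -0.26 in controls. The share of blood or vessel cells in each dissection was not tested.

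Stress genes are of interest because the GD8:15 embryos were taken 3 h after arsenate and the GD9:00 embryos 12 h after it. None of 26 genes of the NRF2, antioxidant and metal response and none of 20 p53 targets passed, and their medians were 0.03 and 0.07. The heme oxygenase gene Hmox1, which arsenic is known to induce in many cells, read 9.37, 7.55 and 9.20 at GD9:00, against 10.15, 9.33, 8.31 and 9.91 at GD8:15 (-0.72 ± 0.38, adjusted p = 0.33). In the 8 control arrays of these stages Hmox1 lay between 7.04 and 7.69, and 6 of the 7 arsenic arrays were above that range. Of 26 genes of endoplasmic reticulum stress and the integrated stress response, 2 rose. Ddit4, an inhibitor of mTORC1 that stress and low oxygen induce, read 9.91, 9.38 and 9.64 at GD9:00, against 7.97, 7.78, 7.71 and 7.92 at GD8:15 (1.80 ± 0.22, adjusted p = 9.8e-05). Wars, a tRNA synthetase gene, rose by 1.43 ± 0.15.

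Both of those genes rose in controls too, by 1.11 ± 0.20 for Ddit4 and 1.54 ± 0.14 for Wars. Chac1 and Stc2, targets of the same response, had -0.77 ± 0.24 and -0.58 ± 0.18 and did not pass. Chac1 averaged 8.20 ± 0.71 at GD9:00 (SD, n = 3) and 8.97 ± 0.38 at GD8:15 (SD, n = 4) in arsenic embryos, against 7.46 ± 0.27 and 7.67 ± 0.03 in controls at these stages (SD, n = 4 each). Of 21 heat shock and chaperone genes, 1 rose, the co-chaperone gene Stip1 (1.34 ± 0.26), and of 27 immediate early genes 1 fell, Fos. Fos read 7.32, 7.20 and 7.42 at GD9:00, against 7.59, 7.67, 7.93 and 7.96 at GD8:15 (-0.47 ± 0.12, adjusted p = 0.030). Its mean was above that of 36.1% of probes at GD9:00 and of 60.0% at GD8:15.

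Of 30 genes of glycolysis and hypoxia, 3 rose, where 2.4% of all probes did: Pkm, the oxygen sensor gene Egln1 (0.67 ± 0.13) and the collagen hydroxylase gene P4ha1 (0.64 ± 0.16). The lactate dehydrogenase gene Ldha had 0.19 ± 0.41 and the glucose carrier gene Slc2a1 -0.13 ± 0.58. The median of the list was 0.18. Of 49 genes of oxidative phosphorylation 2 rose (4.08%), Atp5b and the complex III gene Uqcrb, and Atp5b read 10.34, 10.49 and 10.22 at GD9:00, against 7.75, 8.18, 8.03 and 8.07 at GD8:15 (2.35 ± 0.18, adjusted p = 6.4e-07). Atp5b was the 1 named gene that passed under every alternative tried, including a slide-series term.

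Ribosomal protein genes, 51 of them, gave 2 rises and 1 fall (5.88%, near the share of all probes). Rpl11 rose by 0.97 ± 0.24 and Rpl31 by 0.83 ± 0.22, while Rpl8 fell by 1.39 ± 0.37, with 12.30, 12.38 and 11.18 at GD9:00, against 13.36, 13.87, 13.37 and 12.79 at GD8:15. Their median difference was 0.15. Of 19 folate and one-carbon genes, the purine synthesis gene Atic rose by 0.76 ± 0.15 and the glycine methyltransferase gene Gnmt fell by 0.43 ± 0.10. Imprinted and fetal growth genes gave 3 rises in 17 (17.6%, where 2.4% of all probes rose): the neuronatin gene Nnat by 1.04 ± 0.19, Igfbp5, a binder of insulin-like growth factors, by 0.86 ± 0.22 and the zinc finger gene Peg3 by 0.73 ± 0.19. With 1 arsenic array left out, Nnat passed in all 7 fits, Peg3 in 3 and Igfbp5 in 2. None of these 3 genes passed in the fit of the 7 arsenic arrays alone. None of 33 proteasome genes and none of 17 genes of cholesterol and lipid synthesis passed.

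**Figure D3:**
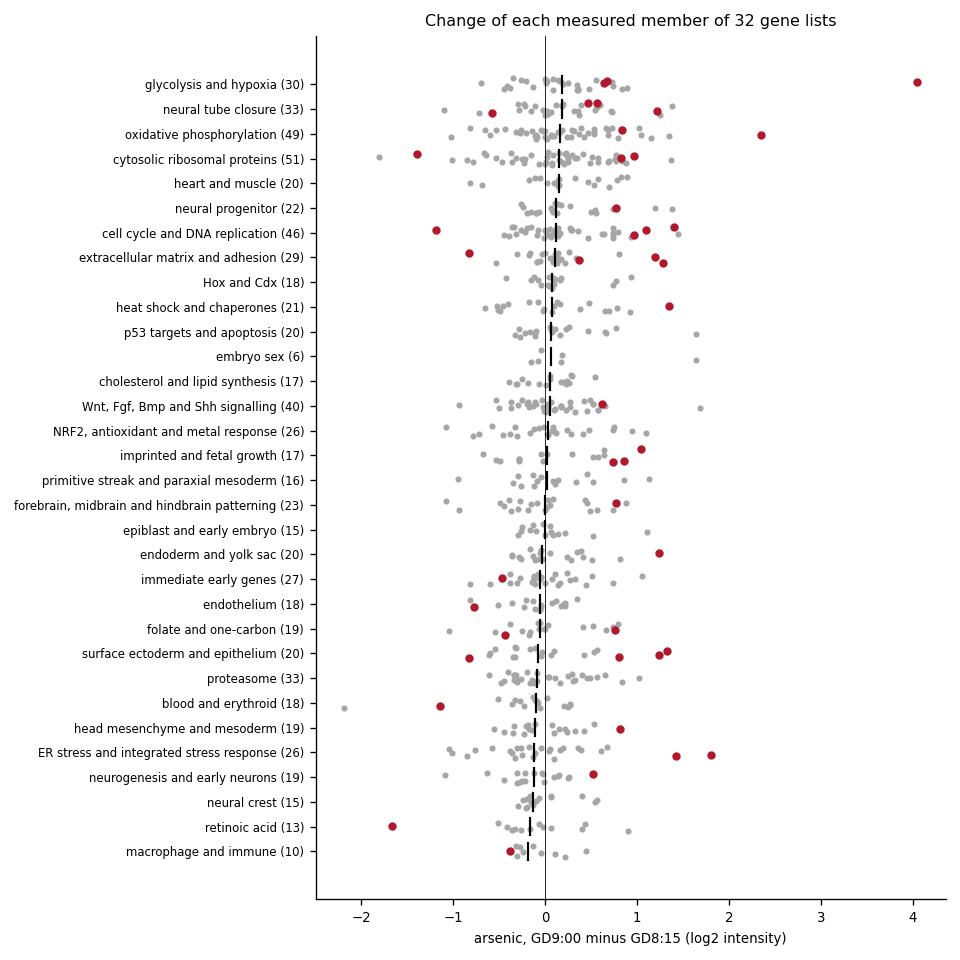
Difference between GD9:00 and GD8:15 in arsenic embryos (horizontal axis, log2 intensity) for each tested member of 32 gene lists, with the number tested in brackets. Red points passed the limma test, grey points did not, and black bars are list medians. Medians lie within 0.19 of 0, and the Pkm point at 4.04 stands alone.

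The list medians are small beside the effect of scaling: with the scaling of the deposited values, all 32 medians lay below 0, against 15 with quantile normalisation. Counts of named members are therefore given in place of a direction for any list.

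The stage change of the control embryos had more calls, from 4 arrays against 4, where arsenic embryos had 3 against 4. The group means of the 2 changes share no array. Both tests used the same spread per probe, pooled over all arrays, so the overlap of their calls is not between independent tests. In controls 1173 of the 7830 probes passed (15%), 638 higher (8.15%) and 535 lower (6.83%) at GD9:00. Of the 188 probes that rose in arsenic embryos, 137 also passed as higher in controls, which is 72.9% of the arsenic list and 21.5% of the control list. Of the 142 that fell, 91 passed as lower in controls, 64.1% of the arsenic list and 17.0% of the control list. No probe passed in opposite directions, and 183 of 188 rises and 139 of 142 falls had the same sign in controls. Across all 7830 probes the 2 stage changes correlated with r = 0.601, a description over probes that share arrays, slide codes and normalisation.

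**Figure D4:**
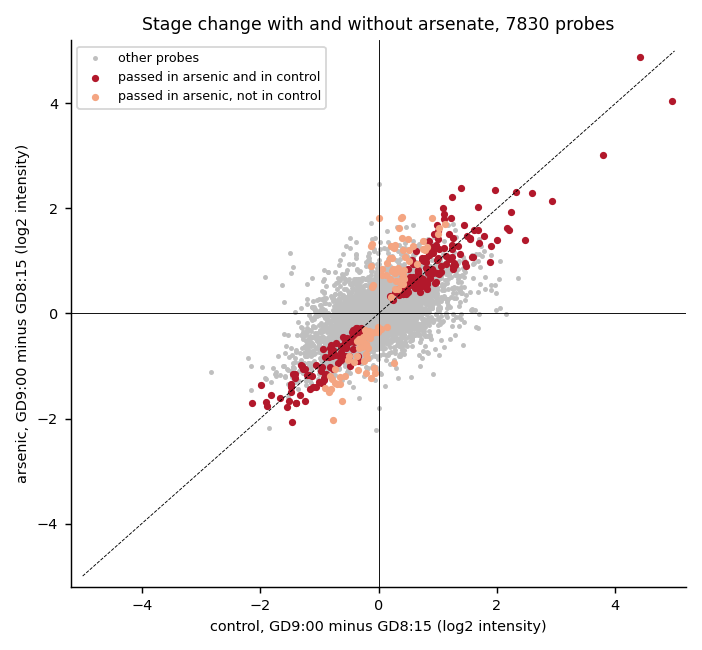
Difference between GD9:00 and GD8:15 in arsenic embryos (vertical axis, log2 intensity) against the same difference in control embryos (horizontal axis) for 7830 probes, with the line of equal change dashed. Dark red and light red points passed in arsenic embryos, the dark ones also in controls, and no such point passed in controls in the opposite direction.

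The test of the difference between the stage changes, arsenic minus control, gave no probe past the threshold. Its lowest adjusted p was 0.39, and 639 probes had an unadjusted limma p below 0.05. The median SE of this difference was 0.270. Nearest to the threshold among genes with a higher change in arsenic embryos stood Cnn1, a smooth muscle calponin gene. Cnn1 had 9.66, 9.20 and 9.45 at GD9:00 and 8.81, 8.59, 8.99 and 8.25 at GD8:15 in arsenic embryos, a change of 0.78 ± 0.34, against -1.47 ± 0.32 in controls. The difference was 2.25 ± 0.47 (adjusted p = 0.39). It passed with array weights and without control GD9:00 replicate 4.

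In order of p among the positive differences of named genes stood next Arnt, the partner of hypoxia and dioxin receptors (difference 1.09 ± 0.26), the muscle glycolysis gene Pgam2 (1.04 ± 0.26), the chemokine receptor gene Ccr8 (0.85 ± 0.21) and the small heat shock gene Hspb1 (0.83 ± 0.21). Each of these 4 genes changed by less than 0.32 in arsenic embryos and fell in controls. On the other side stood Cfdp1, a chromatin gene, which fell by 1.23 ± 0.20 in arsenic embryos and had -0.13 ± 0.18 in controls (difference -1.09 ± 0.27). Dtnbp1, Bcl6, Sh3bp5l and Mpdz followed with differences of -0.99, -0.47, -0.47 and -0.46, all at an adjusted p of 0.39. Larger differences at higher unadjusted p stood among genes picked after their values were seen: Ank3 had 1.92, Rnf138 1.79 and Pex19 1.29, all with the same adjusted p. Pex19 passed with array weights (1.51, adjusted p = 0.040). Without control GD9:00 replicate 2 Pex19 (1.63, adjusted p = 0.0015), Ank3, Rnf138, Pcp2, Podxl and Sox17 passed. The probe numbers of these genes all lay between 9511 and 9694. Probes in low-signal runs made up 10.8%, 10.2%, 2.06% and 7.95% of control GD9:00 replicates 1 to 4. On arsenic GD9:00 replicates 1 to 3 they made up 0%, 0% and 0.105%. The part of such runs in these calls was not tested. Without control GD9:00 replicate 4 Pgam2 passed beside Cnn1.

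Control GD8:15 replicate 3 carried the slide code of the GD9:00 arrays. For 149 of 187 probes that rose in arsenic embryos (79.7%) this array lay nearer the arsenic GD8:15 mean than the GD9:00 mean, and for 85 of 142 that fell (59.9%). Of the 44 named rises it lay nearer the GD8:15 mean for 36 and nearer the GD9:00 mean for 8, and of the 25 named falls nearer GD8:15 for 17 and nearer GD9:00 for 8. It read 7.40 for Skp2, 7.36 for Eef2 and 7.83 for Atp5b, at the GD8:15 level. For H2az1 it read 11.69, for Isl1 7.85, for Kmt5a 10.30, for Krt18 10.22, for Tmem126a 9.84, for P4ha1 9.87, for Rpl11 14.98 and for Uqcrb 14.03, nearer the GD9:00 level. The falls nearer GD9:00 were Aif1, Cd3d, Ddt, Fos, Hba-x, Musk, Necab2 and Tie1. A slide-series term in the fit rests on control GD8:15 replicate 3 set against control GD8:15 replicates 2 and 4. It is therefore not separate from the values of that array just given. With the slide series as a term in the fit, 6 probes passed, 3 of them among the 330, and 329 of the 330 kept their sign, with a median SE of 0.379. Besides Atp5b and probe 7207 these were Hadh, Socs2, Nelfcd and a further probe without a symbol, named here after their values were seen. Pkm then had a difference of 4.32 (adjusted p = 0.11) and Skp2 3.26 (adjusted p = 0.16). Of the 69 named genes that passed, 68 lost their call with this term, 16 had a difference over 1.5 times smaller and 2 one over 1.5 times larger, Aldh1a2 (-2.61) and Fgf15 (1.07). Among rises the smaller differences were 0.43 for H2az1, 0.98 for Sqstm1, 0.98 for Tmem126a, 1.13 for Kmt5a, 0.75 for Krt18, 0.67 for Stip1, 0.34 for Ccnd2 and 0.10 for Isl1. Among falls they were -0.87 for Coro1b, -1.06 for Wfdc2, -0.78 for Rps6kb2, -0.72 for Hspbp1, -0.64 for Cd3d, -0.46 for Tie1, -0.20 for Fos and -0.14 for Aif1. With the slide series as a random block, at an estimated correlation of -0.03 within a series, 467 probes passed, all 330 among them. Within the 7 arsenic arrays the slide series cannot be told apart from stage.

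Folr2 itself, the gene the labels say the embryos lack, lay below the filter on dim probes. It read 6.90, 6.80 and 6.86 at GD9:00, against 6.86, 7.04, 6.68 and 7.12 at GD8:15, near the lowest values of the arrays (difference -0.07, exact permutation p = 0.57, two-sided). Xist, the RNA that coats the inactive X chromosome of females, read 9.77, 10.08 and 10.35 at GD9:00, against 9.06, 8.70, 7.86 and 8.08 at GD8:15. Its difference of 1.64 ± 0.72 did not pass in limma (adjusted p = 0.23), and the groups did not overlap (exact permutation p = 0.029, the smallest that 3 against 4 arrays allow).

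All 7 arsenic arrays had Xist at 7.86 or above, whereas 7 of the 8 control arrays of these stages lay at 7.20 or below and 1 at 8.71. The Y-linked gene Eif2s3y read 7.01 to 7.30 in the 7 arsenic arrays and 7.06 to 7.89 in the 8 control arrays. Xist thus set the arsenic arrays apart from most control arrays and also differed between the arsenic stages, while Eif2s3y overlapped between the arms. The part of embryo sex in the arsenic stage change and in its comparison with controls was not tested. Between the arsenic stages Eif2s3y differed by -0.08 (exact permutation p = 0.31), and none of 6 genes of embryo sex passed.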

How the data were processed

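Spot intensities on a linear scale were used as deposited, 1 value per probe and array. The deposited intensities had been scaled by the authors to a mean of 600 at GD8:15 and 500 at GD9:00, as the values themselves show. The image analysis and background steps are not given in the sources used here. The 838 values of 1 or 2 were taken as placeholders and set to missing. Intensities were put on the log2 scale and quantile normalised over all 22 arrays. A probe needed values on 2 arrays in each group, and the dimmest 25% were left out, which left 7830 of 10500 probes, 7283 of them with 1 gene symbol in the platform annotation.

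One limma fit (3.58.1, R 4.3.3) of 6 group means over all arrays gave the stage change with arsenate, without it, and the difference of the changes, with Benjamini-Hochberg adjustment over all probes and a threshold of 0.05. Folr2, Xist and Eif2s3y also had a two-sided exact permutation test. Named genes were the 15 largest changes in each direction with groups that did not overlap, up to 4 genes of lowest p per list, and 5 per direction for the difference of changes, besides Folr2, Xist and Eif2s3y. Further members of a list are given where they describe it. The arrays, gene lists and rules were chosen with earlier results of these data known. The fit was tested on simulated data. Array number limits the precision. Low-signal runs were stretches of 31 probes with a running median under -0.3. Alternatives changed scaling, filter, placeholders, slide series, array weights, empirical Bayes setting and the arrays used.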

Additional observations from a re-analysis of the deposited data

Results flagged for a closer look

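Among 164 named genes, 6 had 1 arsenic GD8:15 array far from the other 3, and chance alone gives about 1 such gap in 20 groups. Atic read 7.22 in replicate 4 and 7.44 to 7.47 in the others. Cldn6 read 8.81 in replicate 3 and 7.95 to 8.06 in the others. Osr1, a mesoderm gene that did not pass, read 8.21 in replicate 1 and 7.28 to 7.39 in the others. Peg3 read 7.24 in replicate 4 and 7.60 to 7.65 in the others. Sec61a1 read 7.11 in replicate 2 and 7.16 in the others, a gap that is small beside its difference of 2.31. Uty, a Y-linked gene that did not pass, read 7.03 in replicate 4 and 7.31 to 7.33 in the others.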

How the results depend on the processing

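Counts of probes that passed in arsenic embryos (188 higher and 142 lower) moved with several choices. They were 19 higher and 132 lower with the deposited scaling, 67 and 47 with cyclic loess, 4 and 2 with the slide series as a fixed term, 456 and 431 with array weights, and 40 and 7 with the 7 arsenic arrays alone. With low-signal runs masked 283 were higher. Leaving out one array gave 90 to 185 higher and 42 to 213 lower, with the fewest without GD9:00 replicate 1 (90 and 42), and 114 and 45 without GD9:00 replicate 2. In controls (638 and 535) the counts were 167 and 2578 with the deposited scaling, 391 and 335 with the dimmest 50% left out, 25 and 8 with the slide-series term, and 350 and 265 with the control arrays alone. Array weights gave 1043 lower, and leaving out one array gave 384 to 746 higher and 266 to 648 lower, with the fewest without GD8:15 replicates 4 (384 and 285) and 1 (411 and 266), and 344 lower without GD8:15 replicate 2. The difference of changes had 2 higher probes with array weights, and 0 to 6 when one array was left out: 6 without control GD9:00 replicate 2 and 2 without replicate 4. Folr2 turned to 0.0428 with cyclic loess and 1.11 with placeholders kept, and ran from -0.154 to -0.00651 with one array left out.

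None of the 69 named genes that passed changed sign under any alternative tried. Among named genes that did not pass, the sign turned with the deposited scaling for Arnt (-0.0343), Meis3 (-0.137), Pgam2 (-0.191), Rxrg (-0.00218) and Uty (-0.0718). With the slide-series term it turned for Ccr8 (0.605), Hand1 (0.262), Meis1 (-0.543), Nfe2 (0.0966), Nkx2-5 (-0.0712), Pax1 (0.179), Pgam2 (-0.0376), Pmaip1 (-0.504), Smo (-0.0138), Sry (0.0586) and Zfy1 (0.109). Array weights turned Dtnbp1 (0.0603) and Sh3bp5l (0.0310), and cyclic loess Eif2s3y (0.0356). With one arsenic array left out the values ran from -0.168 to 0.0396 for Ccr8, from -0.545 to 0.072 for Pax3, from -0.00397 to 0.197 for Pgam2 and from -0.105 to 0.0011 for Zfy1. The cause of these shifts was not tested. Of those 69 genes, 32 passed in every one of the 7 fits that left out an arsenic array, 21 passed in the fit of the 7 arsenic arrays alone and 1 passed with the slide-series term. No paired analysis was possible because the labels give no replicate numbers, and those used here follow accession order.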
